A study of Homo sapiens with 4 samples.

Results

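The genes described here are 56 components of the lysosome and of its transcriptional control: 17 genes of the vacuolar proton pump (V-ATPase), 12 lysosomal proteases, 12 glycosidases, lipases and a sulfatase, 9 genes for lysosomal membrane proteins and lipid transfer, and 6 genes for MiT/TFE transcription factors and the folliculin complex. They were chosen by symbol, and each of the 56 had 1 feature among the 23786 features of the array. Expression was measured in U87, an established human glioblastoma line grown in medium with serum, on 4 arrays with 1 array per condition. The arrays held cells given 2 µM crizotinib for 24 hours, cells given vehicle for 24 hours, cells kept in 1 µM crizotinib for 21 days, and a culture kept for 21 days without the drug. Crizotinib, a weak base, inhibits MET, ALK and ROS1, which are receptor tyrosine kinases. The 21-day arrays are labelled crizotinib-resistant and crizotinib-sensitive; they are read here as the culture in drug and its drug-free control, from the series' design text, and the sign of every 21-day difference rests on that reading.

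Lysosomes digest proteins, glycans and lipids with acid hydrolases, and the V-ATPase supplies the acidity by pumping protons across the lysosomal membrane. The pump has a membrane sector, Vo, through which protons pass, and a cytosolic sector, V1, which hydrolyses ATP. TFEB, TFE3 and MITF bind E-box sequences in the promoters of many lysosomal genes, a set known as the CLEAR network. The kinase complex mTORC1 at the lysosome surface phosphorylates TFEB and TFE3 and keeps them in the cytosol, and folliculin with its partners FNIP1 and FNIP2 is needed for that step. These factors are therefore known to be controlled largely by their location in the cell, which a transcript array does not measure.

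Values are log2 expression, and a difference of 1 is a 2-fold change. The array medians lay between 4.92 and 4.98. No condition was repeated, so a difference between a crizotinib array and its own control carries no error estimate and no p-value, and the counts go by size: a gene had to be at least 2-fold apart, and its higher array had to reach 4.96, the median over all features and arrays. Backgrounds are given for the 11891 features whose mean over the 4 arrays reached that median, among them 52 of the 56 genes; CTSH, CTSZ, TFEB and MITF were below it. All 8 measured markers of mesenchymal glioma, such as CD44 and VIM, were above the median on every array, whereas 5 of 6 glial and neural stem markers, GFAP and SOX2 included, were below it on every array. The RNA is from whole cultures, so fewer cells of one kind and less RNA per cell cannot be told apart.

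Lysosomal genes stood higher in crizotinib in both pairs, mostly by less than 2-fold. After 24 hours, 46 of the 56 genes were above 0, against 49.6% of background features, and the median difference was 0.36, against 0.00 over the background. After 21 days, 48 of 56 were above 0, against 47.7% of background features, and the median was 0.34, against -0.02. Between the arrays without drug, the 21-day control minus the 24-hour vehicle array, 31 of 56 were above 0 and the median was 0.05, against 0.03. At the 2-fold size, 4 genes were higher and 0 lower after 24 hours, where 2.35% of background features were higher and 2.07% lower. After 21 days, 7 were higher and 0 lower, against 3.25% higher and 3.99% lower. At the 1.5-fold size the counts were 13 higher and 1 lower after 24 hours, against 9.19% and 8.68%, and 16 higher and 0 lower after 21 days, against 9.61% and 11.0%.

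**Figure D1:**
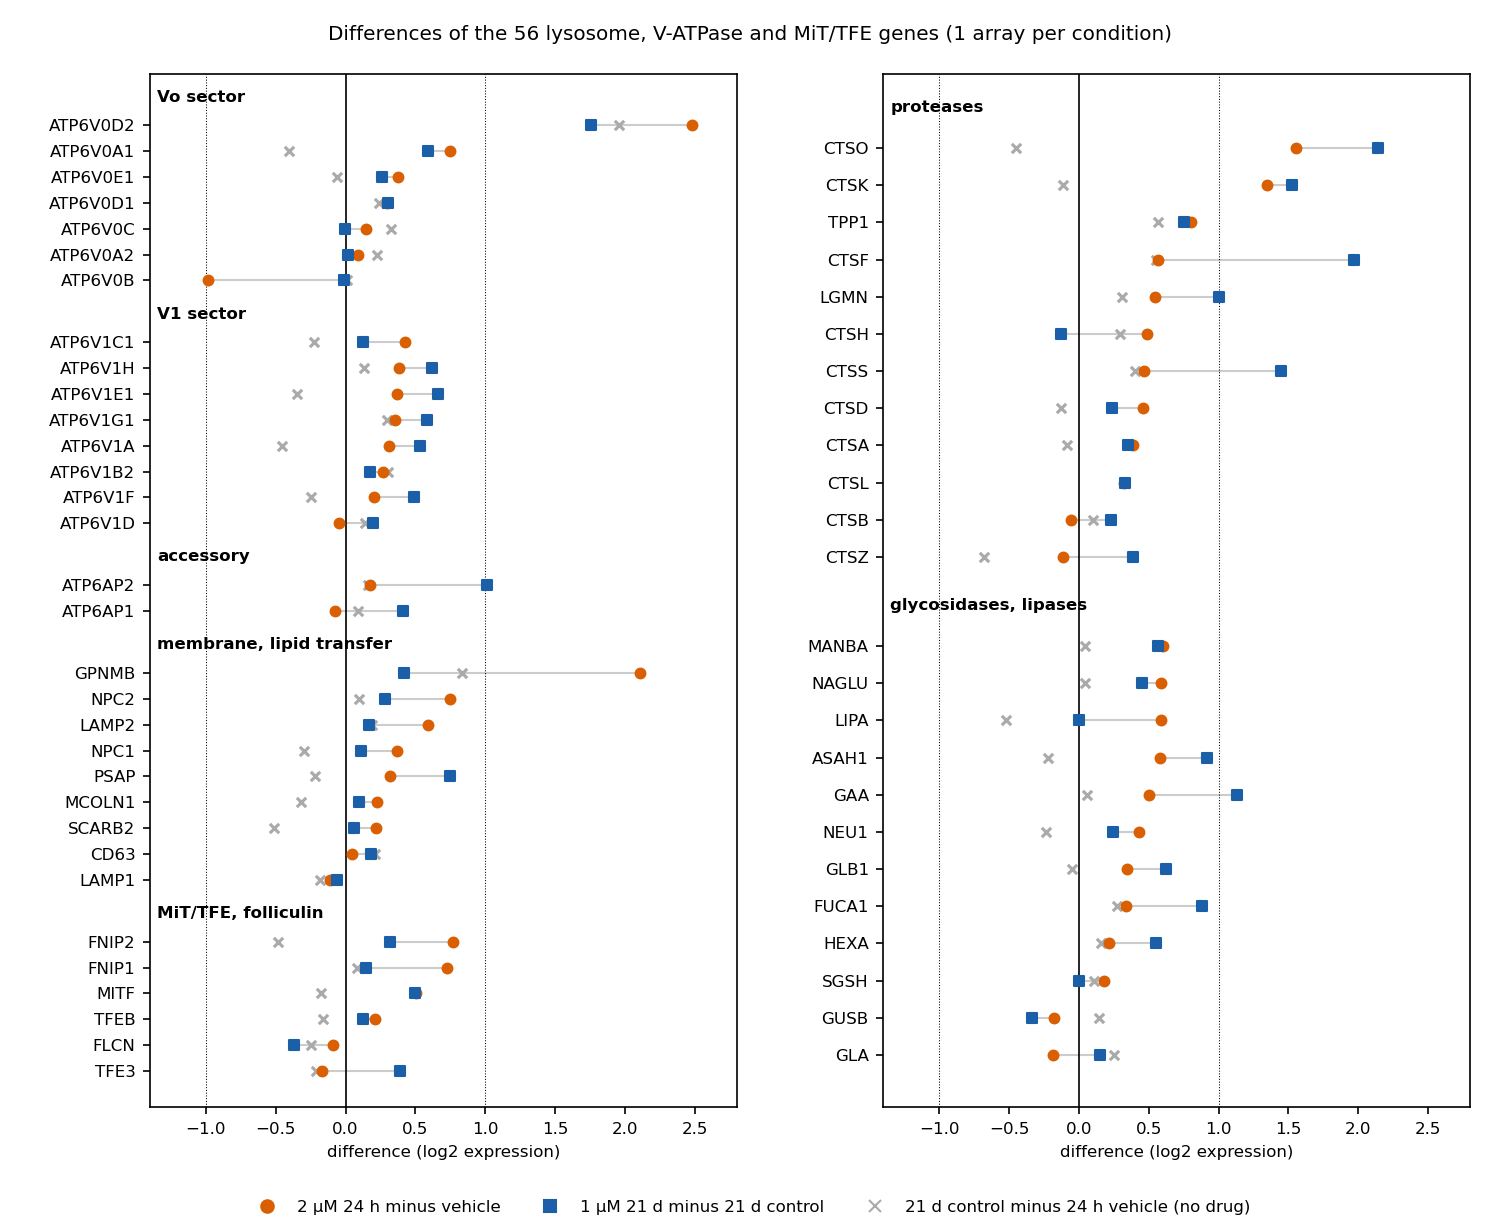
Difference in log2 expression for each of the 56 genes, grouped by role; circles are 2 µM crizotinib for 24 hours minus vehicle, squares 1 µM for 21 days minus the 21-day control, crosses the 21-day control minus the 24-hour vehicle array, and dotted lines mark 2-fold. Most circles and squares lie right of 0, with 46 and 48 of 56 above 0, and ATP6V0B is the gene farthest to the left, at -0.98 after 24 hours.

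The ordering of the 4 arrays shows the same shift. In 32 of the 56 genes, both crizotinib arrays were above both drug-free arrays, and in 1, GUSB, both were below. Among background features these orders were found in 18.5% and 21.8%. The 32 genes were 10 of 17 V-ATPase genes, 8 of 12 proteases, 8 of 12 glycosidases and lipases, 4 of 9 membrane and lipid transfer genes, and FNIP1 and MITF. In the remaining genes the crizotinib and drug-free arrays overlapped.

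Both crizotinib comparisons use separate controls, and their differences correlated across the genes with Pearson's r = 0.57 over 56 genes, against 0.43 over the 11891 background features. Without ATP6V0D2, r was 0.49 over 55 genes, nearer the background value. Genes are not independent replicates, and all arrays share 1 platform and normalization. ATP6V0A1, ATP6V0D2, CTSK, CTSO and TPP1 were at least 1.5-fold higher in both pairs, 5 of 56, against 2.64% of background features. In 28 of 56 genes the 21-day difference was the larger, though dose and time both differ between the pairs. No gene was at least 1.5-fold apart in opposite directions.

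**Figure D2:**
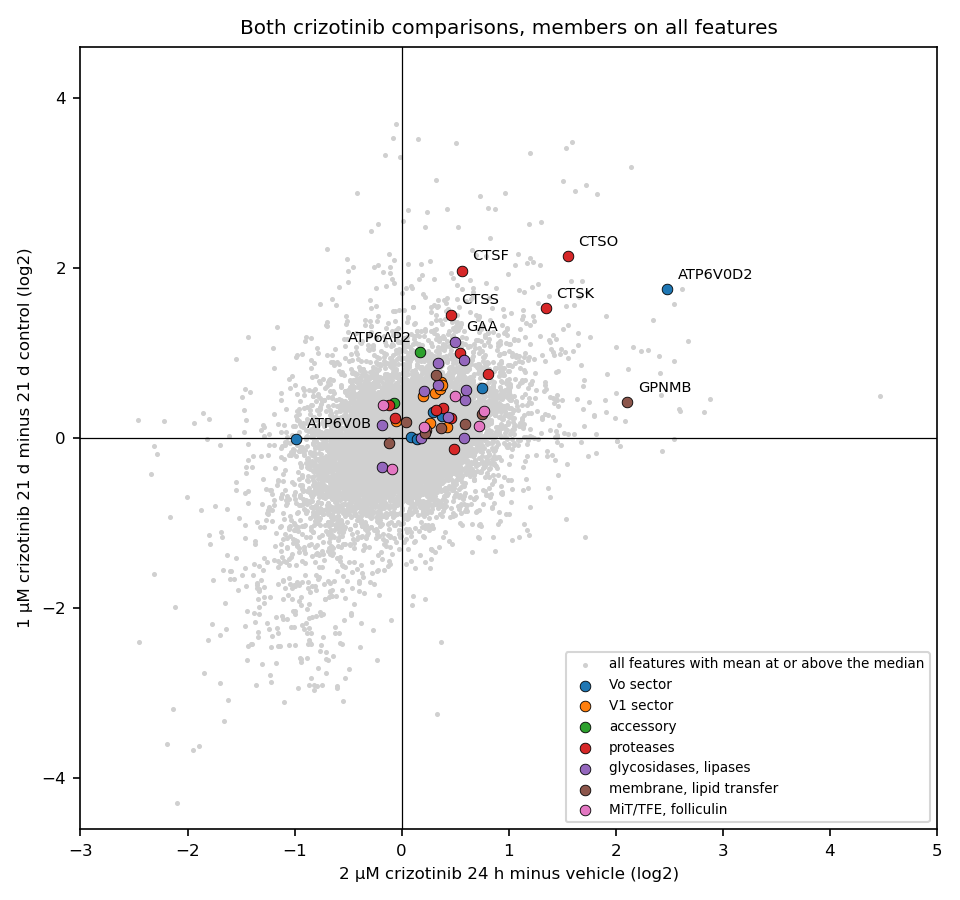
Difference after 24 hours (x axis, log2) against difference after 21 days (y axis, log2) for the 56 genes, coloured by role, over the 11891 background features in grey. The coloured points lie mainly to the upper right of the origin; CTSO, CTSK and ATP6V0D2 are high on both axes, GPNMB on the x axis and CTSF and CTSS on the y axis.

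The promoters of these genes are shown because MiT/TFE factors recognise short palindromic motifs near start sites. RefSeq promoter windows (GRCh38.p14, 250 bases before to 50 after a start site) were matched for 38 of the 56 genes, in 55 windows; ATP6V0D2, CTSK, CTSO, CTSS and LGMN were among the 18 without an entry. Both strands were searched for CACGTG, the E-box core, for TCACGTGA, its longer palindrome, which contains the core, and for TCATGTG, the M-box known from MITF targets, which does not. CACGTG was in windows of 12 of the 38 genes (31.6%), against 8.77% of the 27305 genes in the table. TCACGTGA was in 6 (15.8%), against 1.18%, and TCATGTG in 7 (18.4%), against 3.59%. Median GC content was 68.0% in the 55 windows and 58.7% over all 35116 windows, and its part in these shares was not tested. The genes were chosen as lysosomal, and many lysosomal promoters are known to carry E-boxes, so these shares are not a result of the arrays. A match describes letters in a window and does not show that a factor binds there.

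The 6 windows below are examples chosen by hand, each with at least 1 motif. The motifs are in capitals, and each window runs 5′ to 3′ on the gene's strand. ATP6AP2, 2.01-fold higher after 21 days, has a window without any of these motifs and is not printed. GPNMB (chr7:23246525-23246824, plus strand) holds 2 M-boxes in reverse complement, at -123 and -62 from the start site, and FNIP2 (chr4:158805589-158805888, plus strand) holds 1 at -142. FNIP2 has 2 promoter windows, and the one with the most matches is printed. Its other window holds none of the motifs. CTSF (chr11:66568557-66568856, minus strand) has E-box cores at -123 and -51, and FNIP1 (chr5:131796968-131797267, minus strand) at -175 and -94. GAA (chr17:80101331-80101630, plus strand) has the longer palindrome at -77 and -32. LAMP1 (chr13:113296989-113297288, plus strand) has it at -29 and -2, with 4 further cores upstream.

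GPNMB: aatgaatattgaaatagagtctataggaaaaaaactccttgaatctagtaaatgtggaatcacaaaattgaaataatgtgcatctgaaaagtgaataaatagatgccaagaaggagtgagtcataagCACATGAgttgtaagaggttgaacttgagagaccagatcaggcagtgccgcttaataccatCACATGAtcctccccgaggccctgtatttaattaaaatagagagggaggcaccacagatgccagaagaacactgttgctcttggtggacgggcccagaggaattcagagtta
FNIP2: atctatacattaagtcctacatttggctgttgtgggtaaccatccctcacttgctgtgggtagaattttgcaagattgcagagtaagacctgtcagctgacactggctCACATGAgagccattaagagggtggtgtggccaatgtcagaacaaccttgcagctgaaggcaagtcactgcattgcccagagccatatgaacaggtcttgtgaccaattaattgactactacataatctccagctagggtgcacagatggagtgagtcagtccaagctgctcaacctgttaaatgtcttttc
CTSF: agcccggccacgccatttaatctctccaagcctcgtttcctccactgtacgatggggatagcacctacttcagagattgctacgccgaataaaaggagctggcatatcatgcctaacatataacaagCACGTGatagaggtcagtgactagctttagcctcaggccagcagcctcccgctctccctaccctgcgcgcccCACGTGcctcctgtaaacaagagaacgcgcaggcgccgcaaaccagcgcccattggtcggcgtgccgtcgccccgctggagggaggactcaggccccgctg
FNIP1: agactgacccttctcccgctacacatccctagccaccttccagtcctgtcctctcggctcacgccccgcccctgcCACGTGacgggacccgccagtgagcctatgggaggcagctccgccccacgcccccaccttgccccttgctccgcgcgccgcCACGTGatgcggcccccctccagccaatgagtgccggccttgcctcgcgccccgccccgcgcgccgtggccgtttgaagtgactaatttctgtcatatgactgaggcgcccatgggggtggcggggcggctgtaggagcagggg
GAA: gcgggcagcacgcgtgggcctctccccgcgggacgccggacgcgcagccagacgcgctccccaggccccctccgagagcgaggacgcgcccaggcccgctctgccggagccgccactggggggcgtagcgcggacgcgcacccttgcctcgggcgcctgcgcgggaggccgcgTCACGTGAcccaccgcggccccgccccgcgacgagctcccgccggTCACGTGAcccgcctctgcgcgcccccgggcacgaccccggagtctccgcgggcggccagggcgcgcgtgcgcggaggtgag
LAMP1: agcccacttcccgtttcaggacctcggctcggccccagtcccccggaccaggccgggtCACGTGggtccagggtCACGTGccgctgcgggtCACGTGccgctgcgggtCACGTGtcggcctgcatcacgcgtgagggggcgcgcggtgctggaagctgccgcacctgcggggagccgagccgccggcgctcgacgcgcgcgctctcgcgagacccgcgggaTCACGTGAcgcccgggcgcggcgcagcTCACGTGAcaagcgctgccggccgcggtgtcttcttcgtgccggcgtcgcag

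The 12 genes with CACGTG had median differences of 0.37 after 24 hours and 0.24 after 21 days, and the 26 without it 0.27 and 0.32. The 7 genes with TCATGTG had medians of 0.39 and 0.32, and the 31 without it 0.33 and 0.28. For TCACGTGA the medians were 0.33 and 0.33 in 6 genes with it, and 0.33 and 0.26 in 32 without it. The 18 genes with no window had 0.44 and 0.56. The genes with CACGTG ranged from ATP6V0B, at -0.98 after 24 hours, to CTSF, at 1.97 after 21 days. LAMP1, which carries the densest run of cores among the windows printed, differed by -0.11 and -0.06.

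In the Vo sector, ATP6V0D2 stood out. It encodes an isoform of the d subunit, which links the rotor to the membrane ring and is known from osteoclasts. Its level was 6.54 in 24-hour crizotinib and 4.06 in vehicle, and 7.77 in 21-day crizotinib and 6.02 in the 21-day control. The vehicle level was under 4.96, the limit that only the higher array had to reach. Each crizotinib array was above both drug-free arrays, by 2.48 (5.59-fold) and 1.75 (3.37-fold) over its own control, but the drug-free arrays themselves differed by 1.96. Set against the 21-day control, the 24-hour difference shrank to 0.53, and against the vehicle array the 21-day difference grew to 3.71. It was the 1 gene of the 56 at least 2-fold apart between the drug-free arrays, where 1.49% of background features were at least 2-fold higher and 1.11% lower in the 21-day control. Its sister isoform ATP6V0D1, which most cells use, was at 9.05 against 8.76 and at 9.30 against 9.00, differences of 0.30 and 0.31.

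The other Vo subunits differed less, and not all in one direction. ATP6V0A1, an isoform of the large a subunit through which protons pass, was at 8.77 in 24-hour crizotinib and 8.02 in vehicle, and at 8.21 in 21-day crizotinib and 7.62 in the 21-day control, so both crizotinib arrays were above both others. The differences were 0.75 and 0.59, and with the drug-free arrays exchanged they were 1.15 and 0.18. ATP6V0B, a proteolipid of the rotor ring, was at 8.10 in 24-hour crizotinib and at 9.09 in vehicle, a difference of -0.98, and at 9.09 and 9.10 in the 21-day pair. Its 24-hour crizotinib array was alone in being low, by just under 2-fold (1.98-fold). The major ring proteolipid ATP6V0C differed by 0.14 and -0.01, ATP6V0A2, the a isoform known from the Golgi, by 0.09 and 0.02, and ATP6V0E1, a small membrane subunit, by 0.38 and 0.26.

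The V1 sector was more even, with a larger median in the 21-day pair when each crizotinib array had its own control. Its 8 genes had a median of 0.33 after 24 hours and 0.51 after 21 days, against -0.04 between the drug-free arrays, with 7 and 8 of 8 above 0 and none at least 2-fold apart. ATP6V1A, the catalytic subunit, was at 9.17 in 24-hour crizotinib and 8.86 in vehicle, and at 8.93 in 21-day crizotinib and 8.40 in the 21-day control. ATP6V1E1, a stator subunit, differed by 0.37 and 0.66, and ATP6V1H, a regulatory subunit, by 0.38 and 0.62. ATP6V1G1, also of the stator, differed by 0.36 and 0.58, and the rotor subunit ATP6V1F by 0.20 and 0.49. In these 5 genes both crizotinib arrays exceeded both drug-free arrays. The other members of the sector, ATP6V1B2, ATP6V1C1 and ATP6V1D, lay between -0.05 and 0.43. The order of the pairs depends on the control. With the drug-free arrays exchanged, the differences were 0.77 and 0.07 for ATP6V1A and 0.72 and 0.32 for ATP6V1E1. They were 0.06 and 0.88 for ATP6V1G1 and 0.25 and 0.75 for ATP6V1H. ATP6V1C1 and ATP6V1F then also had the larger difference after 24 hours, and ATP6V1B2 and ATP6V1D after 21 days.

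Of the accessory subunits, ATP6AP2, the prorenin receptor that takes part in pump assembly, was at 8.98 in 24-hour crizotinib and 8.80 in vehicle, and at 9.97 in 21-day crizotinib and 8.96 in the 21-day control. Only its 21-day crizotinib array stood well apart, by 1.01 (2.01-fold). With each array re-centred on its own median it fell under the 2-fold size, and 6 genes in place of 7 reached that size after 21 days. ATP6AP1, the other accessory subunit, differed by -0.07 and 0.41.

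The proteases held 2 of the 4 genes at least 2-fold higher after 24 hours and 4 of the 7 after 21 days, with medians of 0.48 and 0.57, against 0.20 between the drug-free arrays. CTSO, a cysteine cathepsin, was at 7.88 in 24-hour crizotinib and 6.32 in vehicle, and at 8.01 in 21-day crizotinib and 5.88 in the 21-day control. CTSK, the collagen-degrading cathepsin best known from osteoclasts, was at 9.71 and 8.36, and at 9.77 and 8.25, in the same order. For both genes the crizotinib arrays lay close together and well above the drug-free arrays: the differences were 1.55 (2.93-fold) and 2.14 (4.40-fold) for CTSO, and 1.35 (2.54-fold) and 1.52 (2.88-fold) for CTSK. Exchanging the drug-free arrays left these differences between 1.41 and 2.00.

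CTSF and CTSS, further cysteine cathepsins, were high in the 21-day crizotinib array. CTSF was at 5.45 in 24-hour crizotinib and 4.89 in vehicle, and at 7.40 in 21-day crizotinib and 5.44 in the 21-day control, a 21-day difference of 1.97 (3.91-fold). Its 24-hour crizotinib level was within 0.02 of the 21-day control. CTSS, which also cleaves the invariant chain in antigen-presenting cells, was at 7.80 in 24-hour crizotinib and 7.33 in vehicle, and at 9.19 in 21-day crizotinib and 7.73 in the 21-day control, and again its 24-hour crizotinib array was near the 21-day control. LGMN, the asparaginyl endopeptidase legumain, which processes cathepsins, was at 7.19 and 6.65 and at 7.96 and 6.96, and was just under the 2-fold size, at 1.999-fold, after 21 days.

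TPP1, a tripeptidyl peptidase, was at 10.14 in 24-hour crizotinib and 9.34 in vehicle, and at 10.65 in 21-day crizotinib and 9.90 in the 21-day control, with differences of 0.81 and 0.75. With the drug-free arrays exchanged these were 0.24 and 1.32. Other cathepsins differed less. CTSD, an aspartic protease, differed by 0.46 and 0.24, CTSL by 0.33 and 0.33, and CTSB by -0.06 and 0.23. CTSA, a carboxypeptidase that also protects GLB1 and NEU1 from breakdown, differed by 0.39 and 0.35. CTSH, an aminopeptidase whose mean was below the level filter, was at 4.51 in 24-hour crizotinib and 4.03 in vehicle, and at 4.20 in 21-day crizotinib and 4.33 in the 21-day control. CTSZ, a carboxypeptidase also below it, differed by -0.11 and 0.39.

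**Figure D3:**
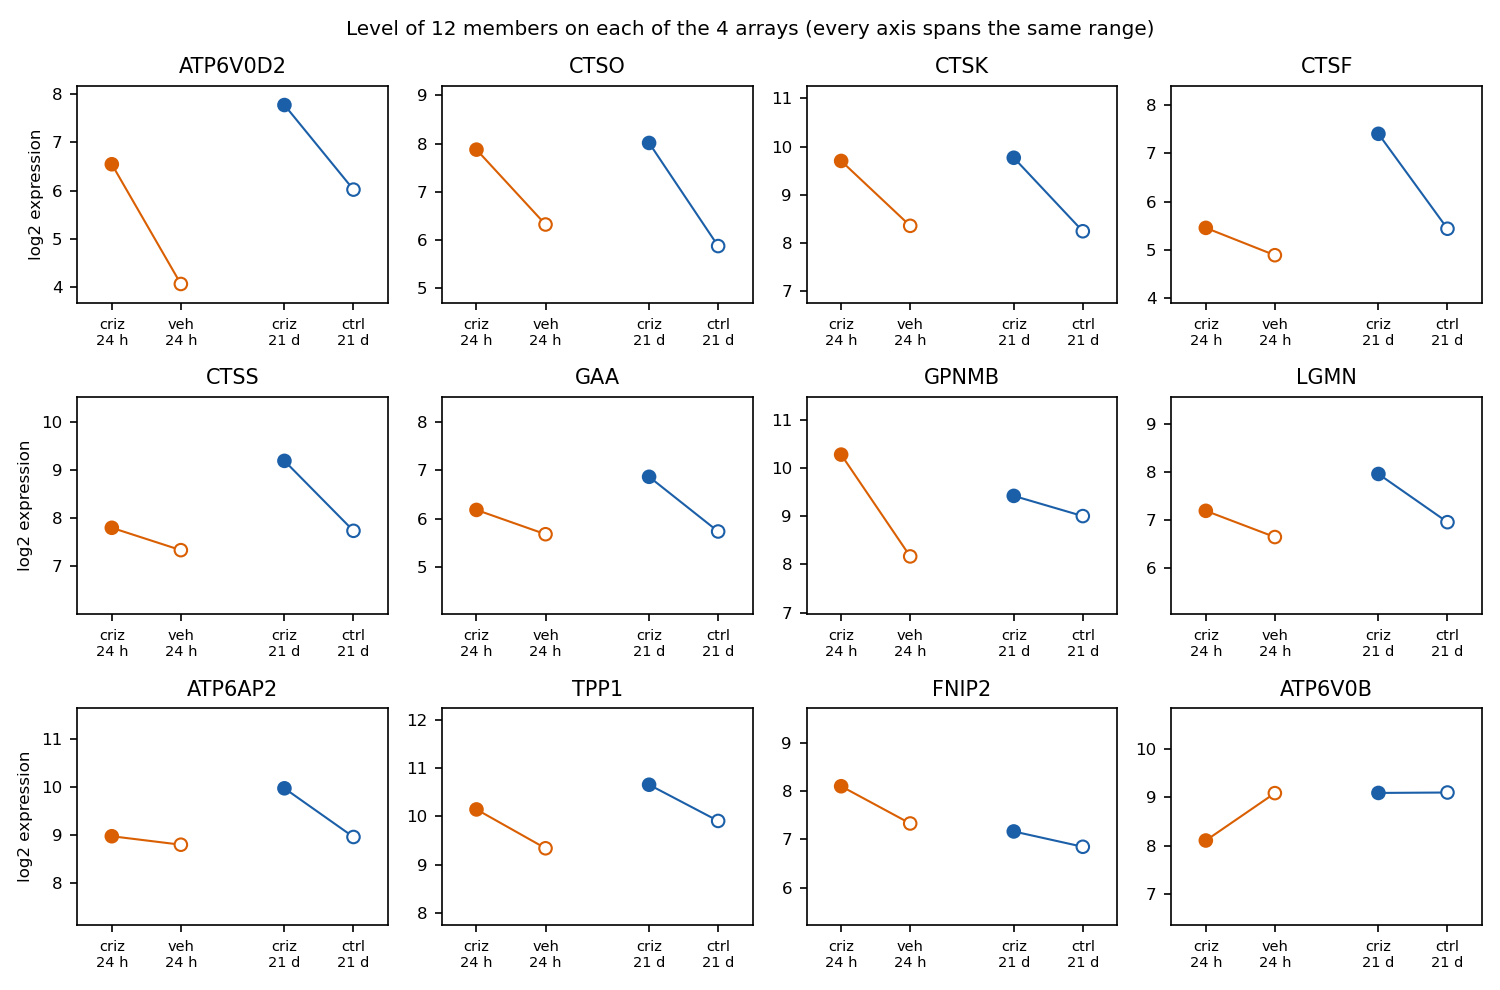
Log2 expression of 12 genes on each array, 1 point per array; filled points are crizotinib, open points vehicle or control, with the 24-hour pair on the left and the 21-day pair on the right of each panel, and every axis spans the same range. CTSO and CTSK show filled points at like heights in both pairs, CTSF and CTSS a high 21-day crizotinib point, GPNMB a high 24-hour crizotinib point, and ATP6V0D2 a gap of 1.96 between its open points.

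Among the enzymes of glycan and lipid breakdown, the medians were 0.39 and 0.50, against 0.05 between the drug-free arrays, with 10 and 9 of 12 above 0. GAA, the acid alpha-glucosidase that degrades glycogen, was at 6.18 in 24-hour crizotinib and 5.68 in vehicle, and at 6.87 in 21-day crizotinib and 5.73 in the 21-day control. It was the 1 gene of this role at least 2-fold higher, at 1.13 (2.20-fold) after 21 days, and its promoter window is printed above. ASAH1, the acid ceramidase, differed by 0.58 and 0.91, FUCA1, the alpha-fucosidase, by 0.34 and 0.88, and MANBA, the beta-mannosidase, by 0.61 and 0.56. GLB1, the beta-galactosidase whose activity is stained in senescent cells, was at 9.64 in 24-hour crizotinib and 9.30 in vehicle, and at 9.87 in 21-day crizotinib and 9.25 in the 21-day control. NAGLU, of heparan sulfate breakdown, differed by 0.59 and 0.45, HEXA, a hexosaminidase subunit, by 0.21 and 0.55, and the sialidase NEU1 by 0.43 and 0.24.

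Other enzymes did not follow in both pairs. LIPA, the acid lipase that frees cholesterol from its esters, was at 9.18 in 24-hour crizotinib and 8.59 in vehicle, but at 8.07 in both 21-day arrays. GUSB, the beta-glucuronidase, was at 7.41 in 24-hour crizotinib and 7.59 in vehicle, and at 7.39 in 21-day crizotinib and 7.73 in the 21-day control. In GUSB both crizotinib arrays were the lower ones. GLA, the alpha-galactosidase, was at 7.94 in 24-hour crizotinib and 8.12 in vehicle, and at 8.53 in 21-day crizotinib and 8.38 in the 21-day control. The sulfatase SGSH differed by 0.18 and 0.00.

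The membrane and lipid transfer genes had a median of 0.32 after 24 hours and 0.17 after 21 days, against -0.18 between the drug-free arrays. GPNMB, a glycoprotein known as a MiT/TFE target and a marker of lysosomal stress, was at 10.27 in 24-hour crizotinib and 8.16 in vehicle, and at 9.42 in 21-day crizotinib and 9.00 in the 21-day control. Its 24-hour difference was 2.11 (4.32-fold) and its 21-day difference 0.42 (1.34-fold). The drug-free arrays differed by 0.84, so the order of sizes depends on the control: with the drug-free arrays exchanged, the differences were 1.27 and 1.26. NPC2, which hands cholesterol to NPC1 for export, was at 10.24 in 24-hour crizotinib and 9.49 in vehicle, a difference of 0.75, and differed by 0.28 after 21 days; NPC1 differed by 0.37 and 0.11. LAMP2, a structural membrane glycoprotein, differed by 0.59 and 0.17, and PSAP, the precursor of the saposins, by 0.32 and 0.74. The remaining members, LAMP1, the calcium channel MCOLN1, the receptor SCARB2 and the tetraspanin CD63, lay between -0.11 and 0.22 in both pairs.

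The transcripts of the MiT/TFE factors were less than 1.5-fold apart in both pairs. TFEB was at 4.51 in 24-hour crizotinib and 4.30 in vehicle, and at 4.26 in 21-day crizotinib and 4.13 in the 21-day control, below the median of all values on every array. MITF was also below it, at 3.91 and 3.41 and at 3.73 and 3.23, differences of 0.50 and 0.50 over its own controls. Both its crizotinib arrays were above both drug-free arrays, and with the drug-free arrays exchanged its differences were 0.68 and 0.32. TFE3 was above the median of all values on every array. It was at 8.35 in 24-hour crizotinib and 8.53 in vehicle, and at 8.70 in 21-day crizotinib and 8.31 in the 21-day control. With the drug-free arrays exchanged, the signs turned for TFE3 after 24 hours, at 0.04, and for TFEB after 21 days, at -0.04.

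FLCN was at 7.11 in 24-hour crizotinib and 7.20 in vehicle, and at 6.59 in 21-day crizotinib and 6.95 in the 21-day control, differences of -0.09 and -0.37. FNIP1 was at 9.01 in 24-hour crizotinib and 8.28 in vehicle, and at 8.51 in 21-day crizotinib and 8.37 in the 21-day control. FNIP2 was at 8.10 and 7.33, and at 7.17 and 6.85, in the same order. FNIP1 and FNIP2 were thus 1.65-fold and 1.71-fold higher after 24 hours, and 1.11-fold and 1.25-fold higher after 21 days. These signs depend in part on the control. With the drug-free arrays exchanged, the differences were 0.16 and -0.62 for FLCN, 1.26 and -0.17 for FNIP2, and 0.64 and 0.23 for FNIP1, so FLCN turned sign after 24 hours and FNIP2 after 21 days. No gene of this role was at least 2-fold apart in either pair.

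Model fits over the 11891 features used limma and had 1 residual degree of freedom. With the drug-free arrays as 1 control group, CTSF rose by 2.24 in 21-day crizotinib (SE 0.30, adjusted p = 0.046, limma with Benjamini-Hochberg adjustment), and it was the 1 gene of the 52 tested to pass 0.05, against 1.49% of all features. Its call was lost with no level filter, at an adjusted p of 0.10. CTSO followed at 1.91 (adjusted p = 0.055, limma) and CTSK at 1.47 (adjusted p = 0.061, limma). Taking an unadjusted p of 0.05 as the limit, 17 of 52 were higher and 0 lower, against 7.88% of all features higher and 9.01% lower. In 24-hour crizotinib, limma called 0 of 52 at the adjusted threshold, against 0.00841% of features, while 11 were higher and 1 lower at an unadjusted p of 0.05, against 7.82% of features higher and 8.45% lower. These 2 contrasts share their control arrays. With crizotinib over both pairs and the pair as a covariate, 0 of 52 passed, against 0.00% of features, and 15 were higher and 0 lower at an unadjusted p of 0.05, against 6.90% of features higher and 7.71% lower. In that fit the smallest adjusted p among the genes was 0.15 in limma, shared by ATP6V0D2 at 2.12, CTSO at 1.85 and CTSK at 1.43. Nothing in the labels says the cultures were independent, so the spread behind these p-values may be technical, and lone crizotinib arrays are assumed to vary like the drug-free arrays.

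Beyond the 56 genes, 93 of 108 further lysosomal genes had a named feature. Their medians were 0.22 after 24 hours and 0.12 after 21 days, against 0.04 between the drug-free arrays, with 71 and 62 of 93 above 0, where 49.6% and 47.7% of background features were. By size, 2 were at least 2-fold higher after 24 hours and 4 after 21 days, and 0 were at least 2-fold lower in either pair. The higher counts are near the background shares of 2.35% and 3.25%, and the shares for lower features were 2.07% and 3.99%. The 24-hour genes were SLC17A5, the sialic acid exporter, at 1.20, and CTBS, the chitobiase, at 1.18. Neither kept the 2-fold size against the other drug-free array, where SLC17A5 was at 0.59 and CTBS at -0.25. The 21-day genes were SLC17A5 at 1.11, IDUA, the iduronidase of glycosaminoglycan breakdown, at 1.66, SIAE, a sialic acid esterase, at 1.45, and GNPTG, a subunit of the enzyme that adds the mannose 6-phosphate sorting tag, at 1.10. Against the vehicle array IDUA was at 0.81, under the 2-fold size, and the others were at 1.71 for SLC17A5, 1.23 for SIAE and 1.11 for GNPTG. At the 1.5-fold size, 10 of 93 were higher and 1 lower after 24 hours, against 9.19% and 8.68% of background features. After 21 days 15 were higher and 6 lower, against 9.61% and 11.0%. In 34 of the 93 genes both crizotinib arrays were above both drug-free arrays, and in 7 both were below, against 18.5% and 21.8% of background features. The hydrolases CTSC, at -0.67 and -0.80, and PPT1, at -0.19 and -0.90, were among the 7.

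By role, the other hydrolases had medians of 0.22 and 0.35 over 19 genes, and the other lysosomal membrane proteins 0.20 and 0.23 over 24. Mannose 6-phosphate and sorting genes had 0.11 and 0.09 over 10, GNPTG among them. The Rag, Ragulator, mTORC1 and calcineurin genes had 0.23 and 0.02 over 18. After 24 hours that list ran from the calcineurin subunit PPP3R1 at -0.40 to the Ragulator subunit LAMTOR3 at 0.66. After 21 days it ran from RHEB, the GTPase that activates mTORC1, at -0.62 to the Rag GTPase RRAGA at 0.75. The HOPS tethering and positioning genes had 0.32 and 0.22 over 11, from the adaptor PLEKHM1 at 0.50 and 0.66 to the tethering subunit VPS16 at -0.54 and -0.67. Other V-ATPase subunits and assembly factors had 0.22 and 0.00 over 11, from ATP6V1E2 at -0.07 to WDR7 at 0.69 after 24 hours, and from ATP6V0E2 at -0.75 to TCIRG1, the a3 isoform of osteoclasts, at 0.42 after 21 days.

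**Figure D4:**
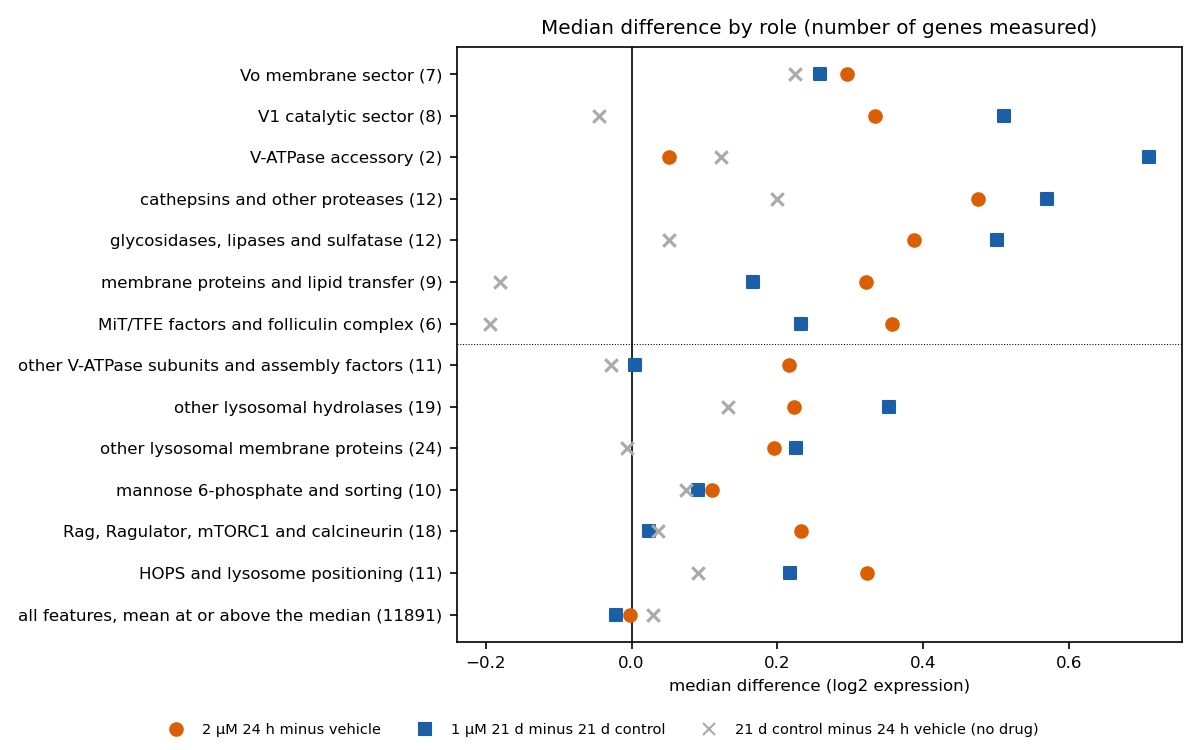
Median difference in log2 expression for the 7 roles above the dotted line and the further lysosomal lists below it, with the number of genes measured; circles are 24 hours, squares 21 days and crosses the drug-free arrays, as in the legend. In the 7 roles both crizotinib medians are above 0, from 0.05 for the 24-hour accessory subunits to 0.71 for the same genes after 21 days, and the 11891 background features lie at 0.00 and -0.02.

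Several of the leading genes are also known from macrophages, osteoclasts or melanocytes, and most markers of those cells were low. Of 7 macrophage and microglia markers, 6 were below the median of all values on every array, PTPRC, CD14 and AIF1 included. CSF1R was above it on every array, between 5.18 and 5.64. The list's mean level was 3.49 in 24-hour crizotinib and 3.41 in vehicle, and 3.58 in 21-day crizotinib and 3.53 in the 21-day control. After 21 days ITGAM differed by 0.64, CD163 by 0.43, AIF1 by 0.11, CD14 by -0.03, PTPRC by -0.11, TYROBP by -0.23 and CSF1R by -0.46. In ITGAM and CD163 both crizotinib arrays were above both drug-free arrays, and in CSF1R both were below. Of 5 osteoclast markers, 4 were below the median of all values on every array and the integrin ITGB3, also known from other cells, was above it. The list's mean was 4.63 in 24-hour crizotinib and 4.57 in vehicle, and 4.97 in 21-day crizotinib and 4.74 in the 21-day control. After 21 days DCSTAMP differed by 0.77, ITGB3 by 0.69, CALCR by 0.41, TNFRSF11A by -0.32 and OCSTAMP by -0.37, a median of 0.41. That median is above the 0.34 of the 56 genes. After 24 hours the 5 markers ran from -0.33 for ITGB3 to 0.21 for CALCR. Their 24-hour median was 0.15, below the 0.36 of the 56 genes. The part of these marker differences in those of ATP6V0D2 and CTSK was not tested. All 6 melanocyte markers, PMEL and MLANA among them, were below the median of all values on every array. Their list mean was 3.31 in 24-hour crizotinib and 3.25 in vehicle, and 3.46 in 21-day crizotinib and 3.28 in the 21-day control.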

How the data were processed

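Total RNA was labelled with biotin for Affymetrix whole-transcript arrays, per the labels' protocols. The deposited unit is log2 expression per Entrez gene. The authors' tools were affy 1.36.1 and R 2.15.1 with RMA, per the submitters' processing notes; RMA includes a background correction, quantile normalization and a summary over probes, so a global shift between arrays would be removed. The genome build is not given in the sources used here. Symbols came from the platform's gene table, which names 22458 of 23786 features, 1 per gene. No scanner file or detection call was analysed here, so no gene can be called absent; with 1 array per condition, precision is limited.

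Each crizotinib array had its own control subtracted. Size rules were 2-fold and 1.5-fold, and the higher array had to reach 4.96. Limma 3.58.1 in R 4.3.3 (lmFit, eBayes, Benjamini-Hochberg) was fitted to 11891 features and tested on simulated data. The fits took the drug-free arrays as 1 group, or the pair as a covariate.

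The members and lists were chosen with earlier results of these data known. All 56 genes are named; those given with every array's value are the genes at least 2-fold or among the 3 highest or lowest of a pair, limma calls, genes at least 1.5-fold alike in both pairs, and the MiT/TFE and folliculin genes, beside examples chosen after values were seen. Other lists name genes at least 2-fold changed, else the highest and lowest of each pair. For the other hydrolases the lowest gene of each pair is named as well. Alternatives were the control, scaling, level filter, floor, fold and limma settings. Summaries used pandas 2.3.3.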

Additional observations from a re-analysis of the deposited data

How the results depend on the processing

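Of 43 alternatives over 8 medians and counts, 36 stayed the same by a set rule and 7 moved. A count stayed the same if it was equal to the reported count or within 1.5-fold of it. This rule compares numbers and not genes, so a count could stay the same while its genes changed. With the other drug-free array as control, the 24-hour count of 6 against 4 was the same by the rule. ATP6V0D2 left it, at 0.53, and ATP6V0A1, LIPA and FNIP2 entered it, at 1.15, 1.11 and 1.26. A median stayed the same if it lay within an interval around its reported value. That interval was set by ranks of the 56 gene differences, so it describes spread across genes. It is no error estimate for a condition. No median turned sign, and a count has no direction to turn. A 1.5-fold size in place of 2-fold gave 13 genes after 24 hours and 16 after 21 days. With the other pair's drug-free array as control, 11 genes were at least 2-fold higher after 21 days, and single genes turned sign in both comparisons (9 after 24 hours, 11 after 21 days). In the limma fit of 21-day crizotinib, 1 gene passed as reported, 0 with no level filter, where more features were tested, 0 with crizotinib over both pairs and the pair as a covariate, 3 with an intensity trend (CTSF, CTSK and CTSO) and 2 after quantile normalization was repeated (CTSF and CTSO); the cause was not tested. No replicate could be left out, since each condition had 1 array. No analysis paired by replicate number was possible because the labels give none; the pair covariate stands in its place. Without repeats or scanner background, small differences at low levels, as for TFEB and MITF, could not be resolved.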
